A study of Mus musculus with 15 samples.

Results

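The genes described here are 5 genes of the Serpina3 family (Serpina3c, Serpina3f, Serpina3g, Serpina3h and Serpina3n) and 5 further acute-phase genes (Lcn2, Saa3, Hp, Orm1 and Ptx3). They were taken by name from the table of read counts, where all 10 were found among 18804 genes, and none was chosen by a threshold on its own values. Earlier results of these data were known, however, when these genes and the gene lists below were chosen. RNA sequencing (RNA-seq) was performed on white adipocytes differentiated in culture from mesenchymal stem cells (MSCs) of C57BL/6J mice, a wild-type strain, with 15 libraries in 3 groups of 5. The study exposed these cells to 31°C to ask how white adipocytes adapt to a cool temperature in the absence of an animal. Cells of all 3 groups were harvested on day 16 of adipogenesis. The day 0 group stayed at 37°C throughout, while cooling to 31°C began on day 15 for the day 1 group and on day 4 for the day 12 group. Every group, the 37°C controls included, had received the same differentiation cocktail (insulin at 5 μg/ml, troglitazone at 5 μM, dexamethasone at 1 μM and methylisobutylxanthine at 0.5 mM, as the labels give it) and was afterwards fed with 10% FBS. The study's methods name troglitazone in their passage on adipocyte precursors and rosiglitazone in that on cell culture. Dexamethasone is a synthetic glucocorticoid, a class of hormone that induces acute-phase genes, and the cells of all 3 groups had met it. The stem cells were prepared from ears, as the methods of the study state. The labels name 5 replicates for each group but no separate animals or cultures, so the p-values measure only the spread between these libraries, which may be technical.

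Acute-phase proteins are secreted proteins whose synthesis changes sharply during infection and tissue injury. The liver is their best known source, but adipocytes make several of them, among them lipocalin 2, haptoglobin, serum amyloid A3 and pentraxin 3. Interleukin 6 and related cytokines induce many of them through gp130 and STAT3, interleukin 1 and tumor necrosis factor act through NF-κB and C/EBP factors, and glucocorticoids strengthen the response. The Serpina3 genes are the mouse relatives of the single human gene for α1-antichymotrypsin. Serpins are suicide inhibitors: a protease attacks an exposed reactive centre loop, the cut loop springs into the body of the serpin, and the protease stays trapped. The flexible hinge before the loop is needed for this movement, while the loop itself sets which protease is caught.

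The loops are shown because they tell the family members apart even where the rest of the transcripts is alike. The Serpina3 genes lie side by side on chromosome 12 (chr12:104112724-104414329 of GRCm38, which is mm10, a span of 301.6 kb). In the GENCODE annotation used here 14 Serpina3 genes lie in that span, of which 4 are pseudogenes and 11 have a row in the count table. The coding strand below, from the GENCODE transcripts, runs from the hinge through the reactive centre loop to the strand that follows it. Capitals mark the hinge (27 bases) and the last 18 bases, and lower case marks the loop between them. Serpina3i and Serpina3m, which are not among the 10 genes, are included because reads could be shared with them.
Serpina3n (chr12:104413448-104413540, plus strand): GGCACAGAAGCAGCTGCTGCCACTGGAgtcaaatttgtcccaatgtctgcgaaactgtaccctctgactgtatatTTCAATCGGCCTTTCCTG
Serpina3m (chr12:104393769-104393861, plus strand): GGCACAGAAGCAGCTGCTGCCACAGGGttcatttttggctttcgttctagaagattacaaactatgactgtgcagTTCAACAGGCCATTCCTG
Serpina3c (chr12:104147304-104147387, minus strand): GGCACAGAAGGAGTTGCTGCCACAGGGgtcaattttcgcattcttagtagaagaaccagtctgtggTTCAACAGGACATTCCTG
Serpina3f (chr12:104220245-104220340, plus strand): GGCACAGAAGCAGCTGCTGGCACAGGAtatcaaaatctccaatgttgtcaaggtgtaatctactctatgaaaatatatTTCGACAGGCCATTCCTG
Serpina3g (chr12:104241072-104241164, plus strand): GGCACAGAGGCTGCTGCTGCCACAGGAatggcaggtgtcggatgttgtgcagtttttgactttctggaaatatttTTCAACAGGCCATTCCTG
Serpina3h (chr12:104253511-104253603, plus strand): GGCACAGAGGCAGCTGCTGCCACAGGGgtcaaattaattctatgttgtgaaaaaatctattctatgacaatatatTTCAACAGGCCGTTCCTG
Serpina3i (chr12:104268480-104268572, plus strand): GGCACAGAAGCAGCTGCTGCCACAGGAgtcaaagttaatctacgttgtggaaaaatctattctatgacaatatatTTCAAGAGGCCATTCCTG
The loop had 13 codons in Serpina3c, 17 in Serpina3f and 16 in the other 5 genes. Against Serpina3n, the hinge was identical at 85.2% to 96.3% of positions, whereas the loop was identical at only 52.0% (Serpina3g) to 68.0% (Serpina3h) of aligned positions. The most alike pair was Serpina3h and Serpina3i, whose loops were identical at 91.8% of positions. Serpina3h is annotated as a transcribed unprocessed pseudogene, so its reads stand for RNA and not necessarily for a protein.

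The proximal promoters are shown because the genes did not move together, and a reader can see which letters those of the same family share. RefSeq windows of 300 bases on build GRCm38.p6, 250 before and 50 after the annotated start, were at hand for 7 of the 10 genes (all but Hp, Orm1 and Serpina3h). Motifs were searched on both strands: TTCNNNGAA for STAT factors, TTNCNNAA for C/EBP factors, GGG and CC with 5 bases between them for NF-κB, and GNACA and TGTNC with 3 bases between them for the glucocorticoid receptor. Matches of any of these are in capitals, and overlapping matches of 1 motif were counted as 1.
Serpina3n (chr12:104406458-104406757, plus strand): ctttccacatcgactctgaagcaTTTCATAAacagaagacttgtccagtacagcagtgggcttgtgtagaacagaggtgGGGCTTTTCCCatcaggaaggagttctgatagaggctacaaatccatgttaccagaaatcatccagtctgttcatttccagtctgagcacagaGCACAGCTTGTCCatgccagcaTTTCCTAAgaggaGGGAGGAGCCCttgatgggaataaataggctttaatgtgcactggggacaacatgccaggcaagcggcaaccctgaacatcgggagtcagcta
Serpina3c (chr12:104153823-104154122, minus strand): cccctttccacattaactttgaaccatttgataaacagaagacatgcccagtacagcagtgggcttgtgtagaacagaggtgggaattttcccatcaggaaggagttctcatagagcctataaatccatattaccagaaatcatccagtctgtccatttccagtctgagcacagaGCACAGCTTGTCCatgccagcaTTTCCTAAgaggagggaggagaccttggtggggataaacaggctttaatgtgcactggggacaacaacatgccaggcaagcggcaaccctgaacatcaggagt
Serpina3f (chr12:104214294-104214593, plus strand): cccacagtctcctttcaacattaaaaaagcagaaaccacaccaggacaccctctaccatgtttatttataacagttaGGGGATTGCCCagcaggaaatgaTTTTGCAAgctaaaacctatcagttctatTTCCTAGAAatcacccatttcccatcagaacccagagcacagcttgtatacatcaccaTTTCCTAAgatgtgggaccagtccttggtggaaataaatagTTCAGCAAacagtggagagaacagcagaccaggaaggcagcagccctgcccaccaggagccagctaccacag
Lcn2 (chr2:32387690-32387989, minus strand): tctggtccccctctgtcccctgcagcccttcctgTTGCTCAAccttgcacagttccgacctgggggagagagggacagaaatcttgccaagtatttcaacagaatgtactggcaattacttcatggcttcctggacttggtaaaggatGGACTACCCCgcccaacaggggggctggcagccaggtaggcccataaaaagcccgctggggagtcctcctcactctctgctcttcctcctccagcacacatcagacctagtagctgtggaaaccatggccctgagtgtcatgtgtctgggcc
Saa3 (chr7:46715627-46715926, minus strand): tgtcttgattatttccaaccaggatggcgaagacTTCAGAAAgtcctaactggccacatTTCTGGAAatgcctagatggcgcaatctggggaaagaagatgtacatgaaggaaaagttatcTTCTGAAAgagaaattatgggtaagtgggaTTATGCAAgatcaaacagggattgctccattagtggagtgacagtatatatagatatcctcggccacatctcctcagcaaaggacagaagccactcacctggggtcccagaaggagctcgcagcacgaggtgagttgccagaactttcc
Windows of Serpina3n and Serpina3c were identical at 89.9% of aligned positions, against 64.3% for Serpina3n and Serpina3f. Both carried the same match to the glucocorticoid receptor motif, GCACAGCTTGTCC, beginning 78 bases before the start in Serpina3n and 75 bases before it in Serpina3c. Such a match was found in 0.475% of all 32851 promoter windows. A STAT match was found in the windows of Serpina3f (TTCCTAGAA, in both of its annotated windows) and Serpina3g (TTCCCAGAA), and in 8.30% of all windows, but not in those of Serpina3n, Serpina3c, Lcn2, Saa3 or Ptx3. Saa3 held 4 C/EBP matches, Serpina3f and Serpina3g 3 each, Serpina3n 2 and the others 1, where 40.7% of all windows held at least 1. An NF-κB match was present in Serpina3n (2), Serpina3f, Serpina3g, Lcn2 and Ptx3 (1 each), as in 50.8% of all windows, and was not found in Saa3 or Serpina3c. For Serpina3f the NF-κB match lay in the window shown and not in its other annotated window. A match is a run of letters and was not tested for binding.

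Totals of 64648178 to 133270973 counts were found per library, at which 3 counts correspond to 0.0238 to 0.0428 CPM (counts scaled to the library total and its TMM factor). All 10 genes passed the filter on low counts in the fit of 14293 genes. Markers of adipocytes were abundant: 7 of 8 had a mean of 1 CPM or more in each group, and Retn (resistin) had less. Genes of hepatocytes summed to at most 5.96 CPM, with Alb (albumin) at 0.0646, 0.107 and 0.168 CPM on days 0, 1 and 12. Markers of macrophages reached at most 14.1 CPM in sum, most of it Cd68, and those of neutrophils at most 4.51 CPM, with Ptprc (CD45, the pan-leukocyte antigen) at 0.0288, 0.0255 and 0.0163 CPM. In such bulk samples fewer cells of a type and less RNA per cell cannot be told apart.

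After 12 days at 31°C the abundant acute-phase transcripts Hp, Lcn2 and Serpina3n and the scarcer Orm1 were lower, while Serpina3f and Serpina3h, both scarce, were higher. Orm1 fell to 0.462 of its 37°C level and Serpina3n to 0.547 of it, with Hp and Lcn2 in between. Serpina3f rose 3.16-fold and Serpina3h rose 2.82-fold. A day at 31°C moved none of the 3 abundant genes past the threshold, and Hp stood slightly above its 37°C level then. Counts of the 10 genes together made up 1.95 ± 0.0637% of all counts on day 0, 2.12 ± 0.0478% on day 1 and 1.21 ± 0.0178% on day 12 (SD, n = 5 libraries). Levels of marker genes moved over the same days. The 8 adipocyte markers summed to 3705 to 3956 CPM on day 0, 4242 to 4527 CPM on day 1 and 3164 to 3446 CPM on day 12, and among them Adipoq (adiponectin) went from 1095 and 1126 to 464 CPM and Fabp4, the fatty acid carrier, from 828 and 1399 to 1617 CPM. Markers of mesenchymal progenitors and fibroblasts, of which 6 of 8 had 1 CPM or more, summed to 3893 to 4265 CPM on day 0, 3475 to 3718 CPM on day 1 and 3103 to 3459 CPM on day 12. Those of mesothelium summed to 9.90 to 11.4 CPM on day 0 and to between 29.7 and 43.9 CPM on day 12. Among them Msln (mesothelin) went from 0.628 CPM on day 0 to 29.3 CPM on day 12 and Krt8, a keratin, from 8.44 to 5.71 CPM, while Upk3b stood at 0.0122, 0.0191 and 0.0220 CPM on days 0, 1 and 12. Their part in the changes of the 10 genes was not tested.

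A gene was called when its Benjamini-Hochberg adjusted p in edgeR's quasi-likelihood test, over all 14293 genes, was under 0.05 and its fold change was over 1.5. On day 1, 1 of the 10 genes was called higher and 2 were called lower, where 7.71% of all genes tested were called higher and 13.4% lower, so the 10 genes were called about as often as all genes. On day 12, 2 of the 10 were called higher, against 13% of all genes, and 4 of the 10 were called lower, against 16.2%. Between day 1 and day 12, 3 of the 10 were called higher, against 10.6%, and 4 of the 10 lower, against 8.53%. The median log2 fold change of the 10 genes was -0.02 on day 1, 0.06 on day 12 and -0.06 between these days, beside -0.01, 0.01 and 0.01 for all genes. Both day 1 and day 12 were compared with the same 5 day 0 libraries. The largest adjusted p among the 16 calls was 1.06e-06, for Serpina3g on day 1. With libraries scaled by their totals alone, the median log2 fold change of all genes on day 12 was 0.21 in place of 0.01, and 35.9% of all calls were lower in place of 55.6%. The counts of calls among the 10 genes were the same under that scaling.

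**Figure D1:**
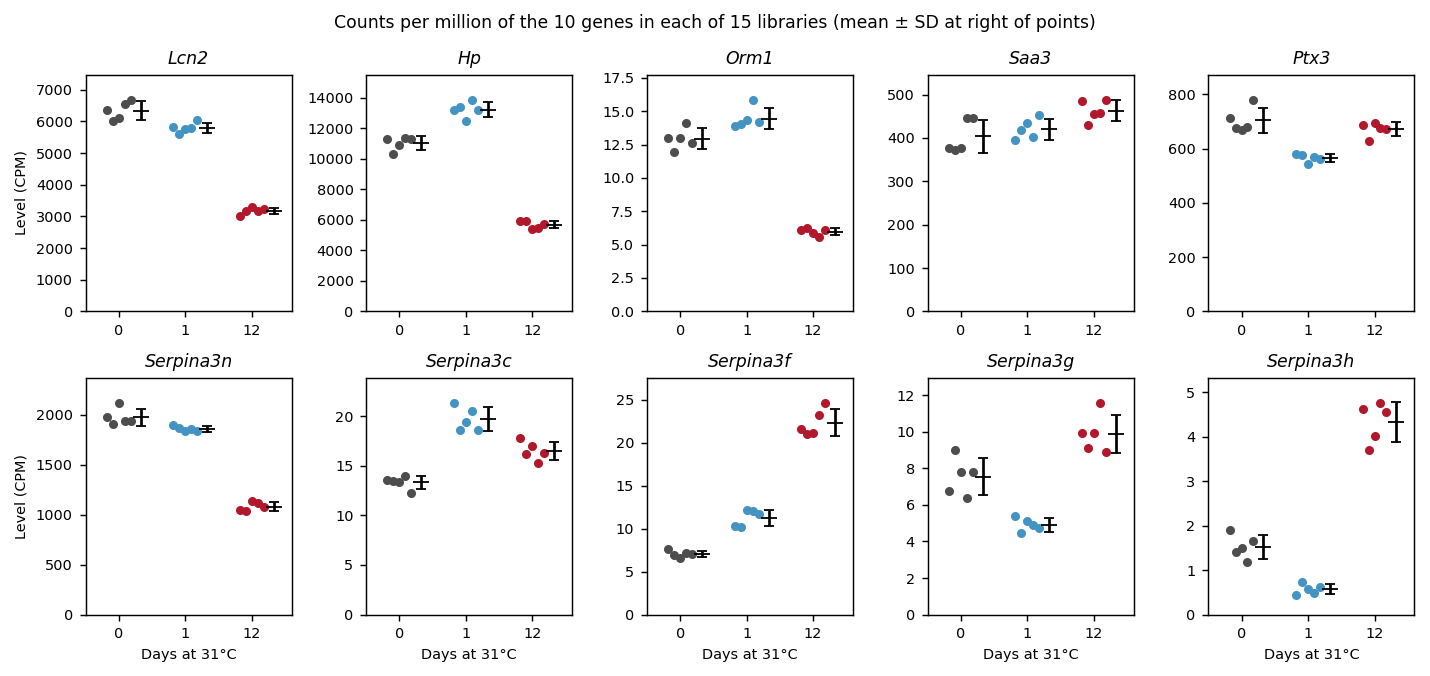
Level of each of the 10 genes in CPM (linear axes from 0) against days at 31°C, with 1 point per library and the mean ± SD of 5 libraries at the right of each group. Lcn2, Hp, Orm1 and Serpina3n lie lowest on day 12, with no overlap with the other groups, Serpina3f and Serpina3h lie highest on day 12, and the groups of Saa3 overlap.

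Lcn2 encodes lipocalin 2, a small secreted protein that withholds iron from bacteria by binding their siderophores and that adipocytes also release as an adipokine. It lies at chr2:32384633-32388252, minus strand of mm10, and no other annotated gene overlaps its exons. Lcn2 stood at 6374, 6004, 6100.5, 6560.1 and 6679.9 CPM in the 5 libraries of day 0. It stood at 5809, 5611, 5771, 5791 and 6049.8 CPM on day 1 and at 3018, 3161, 3297, 3182 and 3225 CPM on day 12. Every day 12 library lay far below every other library, whereas 1 day 1 library reached into the range of day 0. The log2 fold change was -0.13 ± 0.03 (SE, adjusted p = 0.000868) on day 1, which was not called, and -0.998 ± 0.03 (adjusted p = 7.81e-19) on day 12, a level 2.00-fold lower. From day 1 to day 12 it fell by 0.87 on the log2 scale (adjusted p = 2.82e-17). Lcn2 ranked between the 9th and 12th most abundant gene on day 0 and 20th or 21st on day 12.

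Hp encodes haptoglobin, which binds haemoglobin freed from red cells so that it can be cleared. It lies at chr8:109575128-109579172, minus strand. Hp was the most abundant of the 10 genes, at 11278, 10294, 10907, 11339 and 11322 CPM in the day 0 libraries. A day at 31°C brought it to 13184, 13395, 12469.8, 13869 and 13184 CPM, and 12 days to 5944, 5901, 5419.8, 5471 and 5727 CPM. The 3 groups did not overlap: day 1 was highest and day 12 lowest. The rise on day 1 was small, at a log2 fold change of 0.26 ± 0.03 (adjusted p = 2.34e-07), and it did not pass the fold change limit. On day 12 the value was -0.95 ± 0.03 (adjusted p = 7.86e-18), and between day 1 and day 12 it was -1.22 ± 0.03 (adjusted p = 2.2e-19), 2.32-fold lower.

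Orm1 encodes α1-acid glycoprotein, a heavily glycosylated plasma carrier of lipophilic molecules with dampening effects on immune cells. It lies at chr4:63344560-63348163, plus strand, beside the closely similar Orm2 and Orm3. Orm1 was scarce, at 13.03, 12.0, 12.97, 14.1 and 12.6 CPM on day 0 and 13.9, 14.1, 14.3, 15.8 and 14.2 CPM on day 1. Its day 12 libraries held 6.09, 6.24, 5.87, 5.59 and 6.09 CPM, all below the lowest library of the other groups. The log2 fold change was 0.16 ± 0.05 on day 1 (adjusted p = 0.0101, not called, groups overlapping), -1.11 ± 0.06 on day 12 (adjusted p = 5.22e-15) and -1.27 ± 0.06 between these days (adjusted p = 1.07e-15). Of all 50-base windows of the Orm1 transcript, 20.4% were also found in Orm2 or Orm3, and how many Orm1 reads belong to them was not tested. Orm2, named after its values were seen, had 1.52, 1.497 and 0.849 CPM on days 0, 1 and 12 and was called lower on day 12 as well (log2 fold change -0.84 ± 0.16, adjusted p = 4.97e-05).

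Saa3 encodes serum amyloid A3, the serum amyloid A made mainly outside the liver, by adipocytes and macrophages. It lies at chr7:46711998-46715700, minus strand. Saa3 stood at 376, 373, 378, 447 and 445 CPM on day 0, at 394, 418, 434, 401 and 454 CPM on day 1 and at 485, 429, 454, 457 and 488 CPM on day 12. Libraries of all 3 groups overlapped, and 2 day 0 libraries lay above the other 3. Log2 fold changes were 0.06 ± 0.05 on day 1 (adjusted p = 0.316), 0.20 ± 0.05 on day 12 (adjusted p = 0.00124) and 0.14 ± 0.05 between these days (adjusted p = 0.0192), and none was called.

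Ptx3 encodes pentraxin 3, a long pentraxin that recognizes microbes, binds complement C1q and stabilizes hyaluronan-rich matrix. It lies at chr3:66219910-66225805, plus strand. Ptx3 stood at 713, 676, 669, 679.5 and 779 CPM on day 0 and at 581, 575, 541, 569 and 563 CPM on day 1. After 12 days its libraries held 688, 627, 694, 677 and 673 CPM. The day 1 libraries lay below those of both other groups, and day 12 overlapped with day 0. Log2 fold changes of -0.31 ± 0.04 on day 1 (adjusted p = 4.57e-08) and 0.25 ± 0.04 from day 1 to day 12 (adjusted p = 2.31e-06) stayed under the fold change limit. On day 12 the value against day 0 was -0.07 ± 0.04 (adjusted p = 0.101), and it turned to 0.13 (adjusted p = 0.00277) when libraries were scaled by their totals alone.

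Serpina3n encodes the secreted inhibitor best studied in the mouse, which blocks granzyme B and chymotrypsin-like proteases such as cathepsin G. It lies at chr12:104406729-104414329, plus strand, at the far end of the cluster. Serpina3n stood at 1976, 1902, 2116, 1939.7 and 1933 CPM on day 0 and at 1895, 1868, 1835, 1856 and 1833 CPM on day 1. On day 12 the libraries held 1041, 1039, 1133, 1113 and 1072 CPM. All day 1 libraries lay just below those of day 0, and those of day 12 lay far below both. The log2 fold change was -0.09 ± 0.03 on day 1 (adjusted p = 0.013, not called), -0.87 ± 0.03 on day 12 (adjusted p = 5.9e-18), a 1.83-fold lower level, and -0.78 ± 0.03 between these days (adjusted p = 1.13e-16).

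Serpina3c lies at the other side of the cluster, at chr12:104146382-104153870, minus strand, and is the only one of the 5 on that strand. Its loop is the shortest of those shown, and its promoter window is the one most like that of Serpina3n. Serpina3c stood at 13.6, 13.5, 13.4, 14.0 and 12.3 CPM on day 0, at 21.3, 18.6, 19.4, 20.5 and 18.6 CPM on day 1 and at 17.8, 16.2, 17.0, 15.3 and 16.3 CPM on day 12. The groups did not overlap, with day 1 highest and day 0 lowest. The log2 fold changes of 0.56 ± 0.05 (adjusted p = 4.55e-10), 0.31 ± 0.05 (adjusted p = 6.55e-06) and -0.25 ± 0.05 (adjusted p = 9.37e-05) for day 1, day 12 and day 12 against day 1 were all under the fold change limit, the first at 1.48-fold.

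Serpina3f (chr12:104214544-104221129, plus strand) stepped up at each time point. It stood at 7.57, 6.90, 6.57, 7.14 and 7.07 CPM on day 0, at 10.3, 10.2, 12.1, 12.0 and 11.7 CPM on day 1 and at 21.6, 21.0, 21.1, 23.2 and 24.6 CPM on day 12. No library of 1 group reached the range of another. Its log2 fold change was 0.67 ± 0.06 on day 1 (adjusted p = 7.13e-10), 1.66 ± 0.06 on day 12 (adjusted p = 1.13e-17) and 0.98 ± 0.06 between these days (adjusted p = 3.63e-13), and it was the only one of the 10 genes called higher in all 3 comparisons.

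Serpina3g (chr12:104236245-104241939, plus strand), known as Spi2A, is an intracellular serpin that inhibits lysosomal cysteine cathepsins and is induced by NF-κB and interferon γ in leukocytes. Its levels were 6.78, 9.01, 7.80, 6.37 and 7.82 CPM on day 0, 5.39, 4.44, 5.11, 4.88 and 4.71 CPM on day 1 and 9.96, 9.13, 9.92, 11.6 and 8.92 CPM on day 12. Day 1 lay below both other groups, while 1 day 0 library reached the range of day 12. The log2 fold change of -0.62 ± 0.09 on day 1 (adjusted p = 1.06e-06) was called lower by a small margin, and the value was -0.55 (adjusted p = 3.97e-06), under the fold change limit, without day 0 replicate 2, the highest library of its group. On day 12 the value was 0.39 ± 0.08 (adjusted p = 0.000218, not called), and from day 1 to day 12 the level rose 2.01-fold (log2 fold change 1.01 ± 0.09, adjusted p = 3.87e-10).

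Serpina3h (chr12:104247905-104253669, plus strand), the annotated pseudogene, had the lowest level and the widest swings. It stood at 1.91, 1.40, 1.49, 1.18 and 1.65 CPM on day 0, at 0.435, 0.722, 0.565, 0.488 and 0.617 CPM on day 1 and at 4.64, 3.71, 4.02, 4.76 and 4.56 CPM on day 12, with 34 to 63 reads per library on day 1 and 294 to 463 on day 12. The 3 groups did not overlap, with day 1 lowest and day 12 highest. The log2 fold change was -1.44 ± 0.16 on day 1 (adjusted p = 1.29e-08), 1.498 ± 0.13 on day 12 (adjusted p = 1.98e-10) and 2.93 ± 0.15 between these days (adjusted p = 1.6e-14), a 7.64-fold rise.

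**Figure D2:**
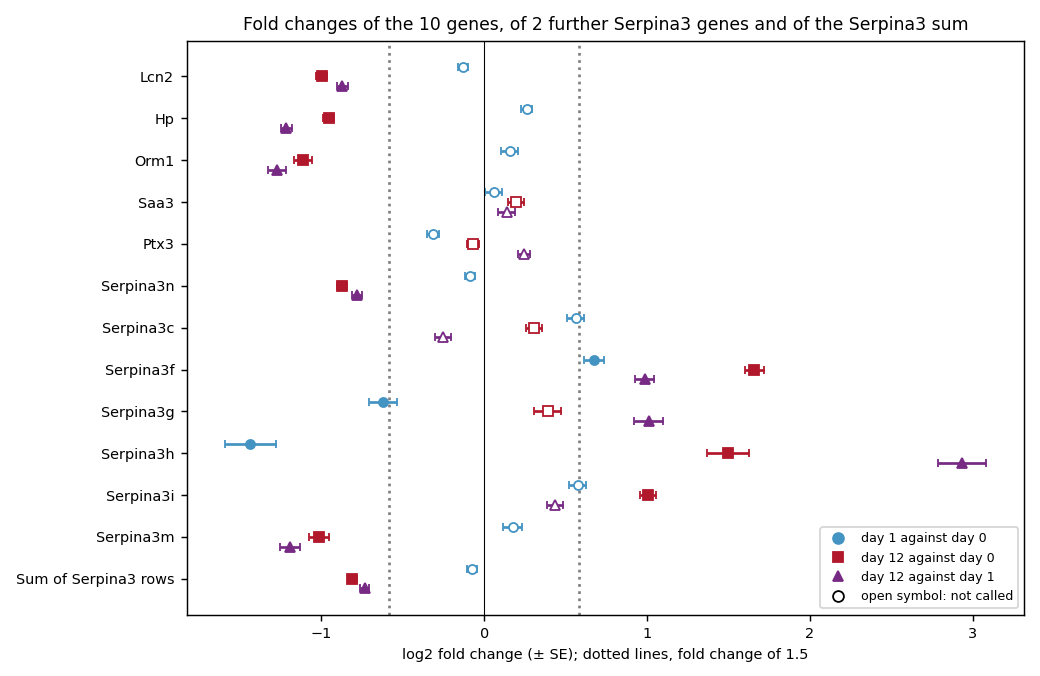
Log2 fold change ± SE from edgeR for the 10 genes, for Serpina3i and Serpina3m and for the sum of all 11 Serpina3 rows, in the 3 comparisons. Filled symbols were called, and dotted lines mark a fold change of 1.5. Day 12 values of Lcn2, Hp, Orm1, Serpina3n and Serpina3m lie near -1 on the log2 scale, while those of Serpina3f, Serpina3h and Serpina3i lie at or above 1.

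Besides these 5 genes, Serpina3i and Serpina3m were the Serpina3 genes with enough reads to be tested. Serpina3i, next to Serpina3h, stood at 8.94, 8.82, 8.33, 8.43 and 8.84 CPM on day 0, at 13.02, 12.9, 12.4, 12.8 and 13.3 CPM on day 1 and at 17.3, 16.1, 16.2, 19.0 and 18.5 CPM on day 12, with no overlap between groups. It was called higher on day 12 (log2 fold change 1.01 ± 0.05, adjusted p = 6.36e-15), and its day 1 value of 0.57 ± 0.05 (adjusted p = 5.07e-10) missed the fold change limit. That day 1 value was called with libraries scaled by totals (0.59), without day 0 replicate 1 (0.59) and without day 1 replicate 3 (0.59). Serpina3m, the neighbour of Serpina3n, had levels of 25.3 ± 2.15, 28.6 ± 2.31 and 12.5 ± 0.760 CPM (SD, n = 5) on days 0, 1 and 12 and was called lower on day 12 (log2 fold change -1.02 ± 0.06, adjusted p = 1.52e-13). Along the chromosome, Serpina3f, Serpina3g, Serpina3h and Serpina3i lie next to each other, and all 4 had higher mean levels on day 12 than on day 0, whereas Serpina3m and Serpina3n, at the far end, had lower ones. Serpina3c, apart from these 4, also had a higher mean level on day 12 than on day 0. The day 12 changes of Serpina3g and Serpina3c were not called. Serpina3a, Serpina3b and Serpina3j had a mean of at most 0.0398 CPM in any group and were not tested. Serpina3k, not tested either, had 0 to 5 reads per library on days 0 and 1 and 7 to 30 reads on day 12.

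Reads could be misplaced among these genes, since the transcripts share stretches of sequence. Of the 50-base windows of each transcript, 21.9% of Serpina3h, 19.1% of Serpina3m, 15.9% of Serpina3i, 15.5% of Serpina3g, 10.6% of Serpina3f, 6.90% of Serpina3n and 4.25% of Serpina3c were found unchanged in another annotated Serpina3 gene. With 100-base windows these shares fell to at most 3.60% for the 5 genes described and to 0% for Serpina3c. Serpina3h shared most with Serpina3i (218 windows of 50 bases) and Serpina3g (195), and the longest run shared by a pair of the 7 genes whose loops are shown was 135 bases, between Serpina3g and Serpina3i. Serpina3n had 956 CPM per kb of exon on day 0 beside 3.59 for Serpina3g, with which it shared 51 windows of 50 bases. How much of any count came from another gene was not tested, and read length and the treatment of reads with several matches are not given in the sources used here.

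Summed over all 11 Serpina3 rows, the family stood at 2037 ± 85.6 CPM on day 0, 1935 ± 27.3 CPM on day 1 and 1163 ± 43.4 CPM on day 12 (SD, n = 5). With the rows replaced by their sum, which left 14287 genes to test, the log2 fold change was -0.07 ± 0.03 on day 1 (adjusted p = 0.0313, not called), -0.81 ± 0.03 on day 12 (adjusted p = 1.8e-17) and -0.73 ± 0.03 between these days (adjusted p = 2.88e-16). The last of these was -0.56 (adjusted p = 1.4e-14, not called) with libraries scaled by their totals alone. Serpina3n made up 96.9 ± 0.0595% of the sum on day 0, 96.0 ± 0.0669% on day 1 and 92.8 ± 0.296% on day 12. Without Serpina3n the sum was 63.5 ± 1.71, 78.0 ± 1.99 and 83.2 ± 3.07 CPM.

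**Figure D3:**
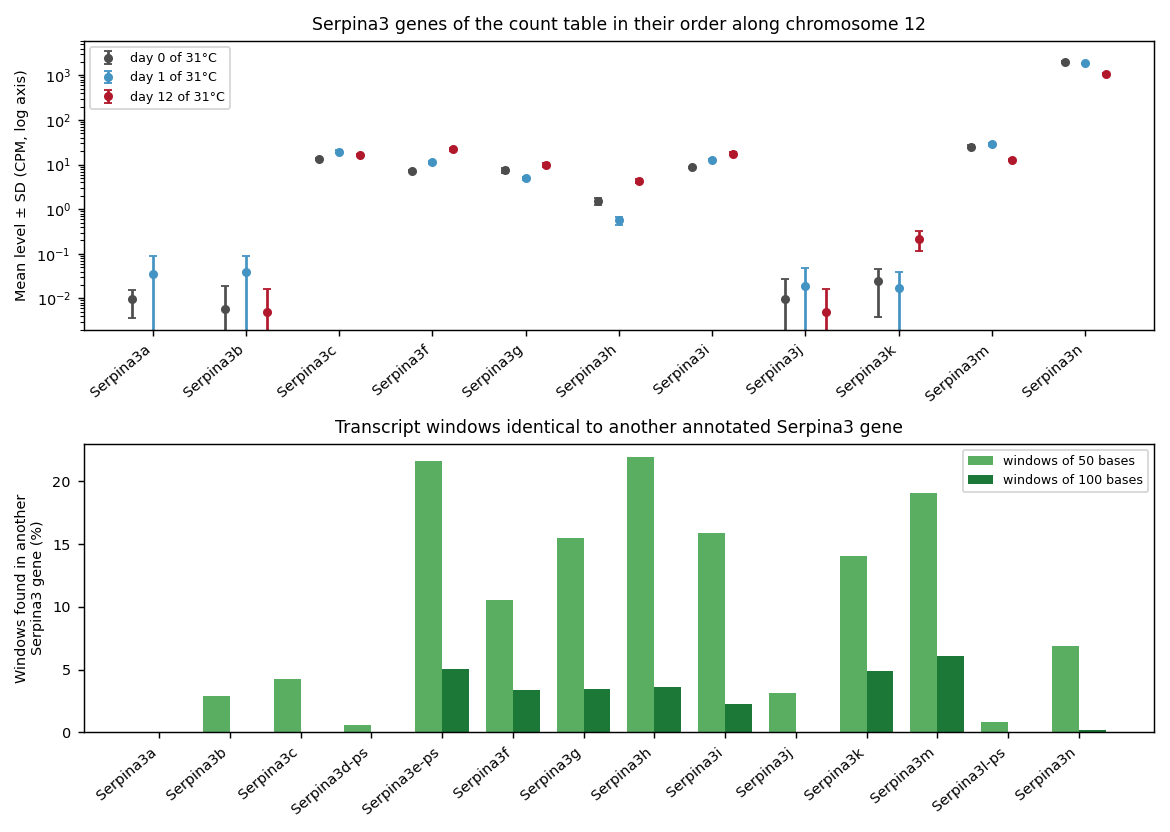
Upper panel, mean level ± SD (CPM, log axis, 5 libraries per group) of the 11 Serpina3 genes of the count table in their order along chromosome 12. Lower panel, percentage of 50-base and 100-base transcript windows found in another of the 14 annotated Serpina3 genes. Serpina3n lies far above the others in every group, the middle genes Serpina3f to Serpina3i lie highest on day 12, and Serpina3h has the largest share of such windows (21.9% at 50 bases). Serpina3a had no reads on day 12 and has no point there, and bars that pass 0 end at the axis.

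Per length of exon the order of the 10 genes was much the same on each day. On day 0 the levels were 6867 CPM per kb for Hp, 2418 for Lcn2, 956 for Serpina3n, 262 for Ptx3, 155 for Saa3, 16.7 for Orm1, 6.03 for Serpina3c, 3.59 for Serpina3g, 3.08 for Serpina3f and 1.06 for Serpina3h. Serpina3g and Serpina3f overlapped there, and no other neighbours did. On day 1 Serpina3f (4.91 CPM per kb) lay above Serpina3g (2.33) with no overlap. By day 12 Serpina3f (9.74 CPM per kb) had moved above Orm1 (7.71) and Serpina3c (7.45), and these latter genes overlapped. Hp, Lcn2 and Serpina3n kept the first 3 places in each group.

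Across the 15 libraries, the genes at 1 CPM or more with the most similar log2 CPM were found for each of the 10 genes among 12131 others, with Pearson's r from 0.883 to 0.997. Lcn2 was most like Itfg1 (r = 0.997) and Tap1 (0.996), the peptide transporter of antigen presentation. Serpina3n was most like Adm (0.997), the gene of the vasodilator adrenomedullin, and Apoe (0.997). Hp was most like Ccdc80 (0.997) and Itga7 (0.996), and Orm1 was most like Smoc1 (0.995) and Cyp4v3 (0.994). Among the scarce Serpina3 genes, these were D10Wsu102e (0.995) and Cyth2 (0.993) for Serpina3f, Fam111a (0.988) for Serpina3h, and Gmeb1 (0.966) and Sept11 (0.963) for Serpina3g. Serpina3c was most like Adh1 (0.989) and Fancm (0.968), Ptx3 most like Kdm1b (0.962) and 1110005A03Rik (0.95), and Saa3 most like Naa30 (0.886) and Fgfbp3 (0.883). These values describe 15 points that share 3 group means, and with the group means taken away they were 0.506 to 0.873. Among the 10 genes, Hp and Orm1 had r = 0.99 over all libraries and 0.70 within groups, the highest within-group value of any pair. Serpina3n and Lcn2 had 0.99 over all libraries and 0.05 within groups. In the other direction, Serpina3g had within-group values of -0.70 with Orm1 and -0.62 with Hp.

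More of the other positive acute-phase genes, which rise in inflammation, were lower than higher after 12 days. Of 30 such genes on a list, 21 were tested. On day 12, 4 were called higher and 11 lower, with a median log2 fold change of -0.84 beside 0.01 for all genes, of which 13% were called higher and 16.2% lower. On day 1, 2 were called higher and 2 lower (median -0.05), near the shares of all genes, 7.71% and 13.4%. Vnn1, a pantetheinase, went from 219 to 115 and 43.2 CPM on days 0, 1 and 12 (log2 fold change -2.34 ± 0.05 on day 12). Serping1, the C1 inhibitor of complement and itself a serpin, went from 852 to 695 and 226 CPM (-1.91 ± 0.03). Saa1 and Saa4, relatives of Saa3, fell on day 12 by 2.22 and 1.31 on the log2 scale from the low levels of 2.10 and 2.76 CPM, while Saa3 did not pass the threshold, and Saa4 was also called lower on day 1 (-1.91 ± 0.15). Hpx, the gene of the haem scavenger hemopexin, went the other way, from 64.0 and 72.8 to 229 CPM (1.84 ± 0.05). Fga, the fibrinogen α chain, rose on day 1 (1.48 ± 0.09) and on day 12 (1.38 ± 0.09) from 7.36 CPM.

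Negative acute-phase proteins, which fall in inflammation, were called in both directions, but the higher calls were of very scarce genes. Of 7 genes, 4 were tested, and on day 12, 2 were called higher and 2 lower, where 13% and 16.2% of all genes were. None was called on day 1, where 7.71% of all genes were called higher and 13.4% lower. Trf, which encodes transferrin, the iron carrier of plasma, fell from 28269 CPM on day 0 to 9306 CPM on day 12 (log2 fold change -1.60 ± 0.03), and Rbp4, the retinol carrier, fell from 299 to 129 CPM (-1.21 ± 0.04). Both that rose, Alb and Serpina6, named after their values were seen, had means under 1 CPM.

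Of cytokine ligands of the acute phase, 15 were listed, 11 had a row and 8 were tested. On day 1, 1 was called higher and 1 lower, beside 7.71% and 13.4% of all genes. On day 12, 2 were called higher and 1 lower, beside 13% and 16.2% of all genes. The median log2 fold changes were 0.33 on day 1 and -0.13 on day 12, beside -0.01 and 0.01 for all genes. Il6, the main inducer of the acute phase, stood at 31.4, 28.2, 24.6, 32.8 and 39.7 CPM on day 0 and at 70.3, 72.4, 73.6, 74.4 and 82.1 CPM on day 12, with every day 12 library above every day 0 library. Its log2 fold change was 0.45 ± 0.09 on day 1 (adjusted p = 0.000101, not called) and 1.25 ± 0.09 on day 12 (adjusted p = 6.14e-12). Clcf1, another ligand that signals through gp130, was called higher on both days (0.64 ± 0.06 and 0.75 ± 0.06). Il1rn, the natural antagonist of interleukin 1, fell from 239 to 77.7 CPM on day 1 (-1.62 ± 0.07) and stood at 154 CPM on day 12 (-0.63 ± 0.07, and -0.44, not called, under scaling by totals). Lif was not called against day 0 and was lower on day 12 than on day 1 (-0.76 ± 0.10, and -0.58, not called, under scaling by totals). Il1a, Il1b and Tnf had too few reads to be tested.

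Of 22 receptors and kinases that carry these signals, all tested, 1 was called higher and 1 lower on day 1, and none higher and 4 lower on day 12, beside 7.71% and 13.4% of all genes on day 1 and 13% and 16.2% on day 12 (medians -0.27 and -0.24 beside -0.01 and 0.01 for all genes). The toll-like receptor genes Tlr2 (-0.73 ± 0.03) and Tlr4 (-0.61 ± 0.04) and Ifngr1, a chain of the interferon γ receptor (-0.65 ± 0.03), fell on day 12, although their values of -0.53, -0.41 and -0.46 with libraries scaled by totals alone were not called, nor was that of Tlr4 without day 12 replicate 2 (-0.58). Il17ra, which binds interleukin 17, rose on day 1 (0.91 ± 0.03) and Irak4, a kinase of the interleukin 1 receptor, fell (-0.91 ± 0.05), and neither was called on day 12 (0.17 ± 0.03 and -0.12 ± 0.05). Of 13 transcription factors tested, none was called higher and 2 were called lower on day 1, and likewise on day 12, where 2 of 13 is near the share of all genes called lower. Nfkb2 fell on day 1 (-0.66 ± 0.03) and Foxo1 on day 12 (-0.73 ± 0.03, and -0.53, not called, under scaling by totals). Stat3, which carries the interleukin 6 signal, named after its values were seen, was at 312, 432 and 444 CPM with log2 fold changes of 0.47 ± 0.02 and 0.51 ± 0.02, which were under the fold change limit.

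Of 14 feedback inhibitors, 1 was called higher and 2 lower on day 1, where 7.71% and 13.4% of all genes were, and 1 higher and 4 lower on day 12, where 13% and 16.2% of all genes were (median -0.37 beside 0.01). The counts on day 1 were near the shares of all genes. Among suppressors of cytokine signaling, Socs2 (-1.22 ± 0.04), Cish (-0.96 ± 0.05) and Socs3 (-0.61 ± 0.04), the classical target of STAT3, fell on day 12, as did Tnip1 (-0.64 ± 0.03). Under scaling by totals alone the values of -0.41 for Socs3 and -0.44 for Tnip1 were not called, and that of Socs3 was not called either without day 0 replicate 5 (-0.58) or within the larger of 2 series of library numbers that the labels show (-0.57). Dusp1, a phosphatase that switches off MAP kinases, was higher on day 1 (0.94 ± 0.06), while Tnfaip3, the A20 brake on NF-κB, fell on day 1 (-0.84 ± 0.04). Of 14 glucocorticoid response genes, 2 were called higher and 2 lower on day 1, and 2 higher and 4 lower on day 12 (median -0.16), of which the higher calls on day 12 and the lower calls on day 1 were near those shares. Tsc22d3, which encodes GILZ (-1.10 ± 0.04), Ddit4 (-1.59 ± 0.04), Pdk4 (-1.24 ± 0.07) and Cdkn1a (-1.34 ± 0.03) fell on day 12, and Sgk1 (1.09 ± 0.04) rose, as did Dusp1 (0.71 ± 0.06), which stood on both lists. The gene of the glucocorticoid receptor, Nr3c1, named after its values were seen, was at 199.6, 203 and 194 CPM and was not called.

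Of 14 tested binding partners, receptors and target proteases, 3 were called higher and 4 lower on day 12, and none higher and 2 lower on day 1 (medians -0.13 and 0.09), where 13% and 16.2% of all genes were called on day 12 and 7.71% and 13.4% on day 1. Slc22a17, a receptor of lipocalin 2, fell from 29.2 to 17.0 CPM on day 12 (-0.78 ± 0.05). Ager, a receptor of advanced glycation end products that also binds serum amyloid A, fell from 3.88 to 1.23 CPM (-1.66 ± 0.12), and the scavenger receptor Cd36, another binder of serum amyloid A, rose (0.63 ± 0.05). The hyaluronan matrix that pentraxin 3 stabilizes depends on hyaluronan synthase 2, on Tnfaip6 (TSG-6) and on heavy chains of inter-α-inhibitor. Has2 fell on day 1 (-1.23 ± 0.05) and day 12 (-0.76 ± 0.05, and -0.57, not called, under scaling by totals), Tnfaip6 fell on day 1 (-0.80 ± 0.07), and Itih2, a heavy chain, rose on day 12 (0.69 ± 0.04). Cd163, the haptoglobin receptor of macrophages, and the protease genes Ctsg, Elane and Gzmb had too few reads to be tested. Of the 69 calls of the 39 list genes that the naming rule picked, the largest adjusted p was 0.00139, for Saa4 between day 1 and day 12 (0.61 ± 0.16), a call that was lost, with values of 0.51 to 0.58, without day 1 replicate 3 or 4 or day 12 replicate 4 or 5. That call of Saa4 was also lost within the larger series of library numbers (0.53).

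**Figure D4:**
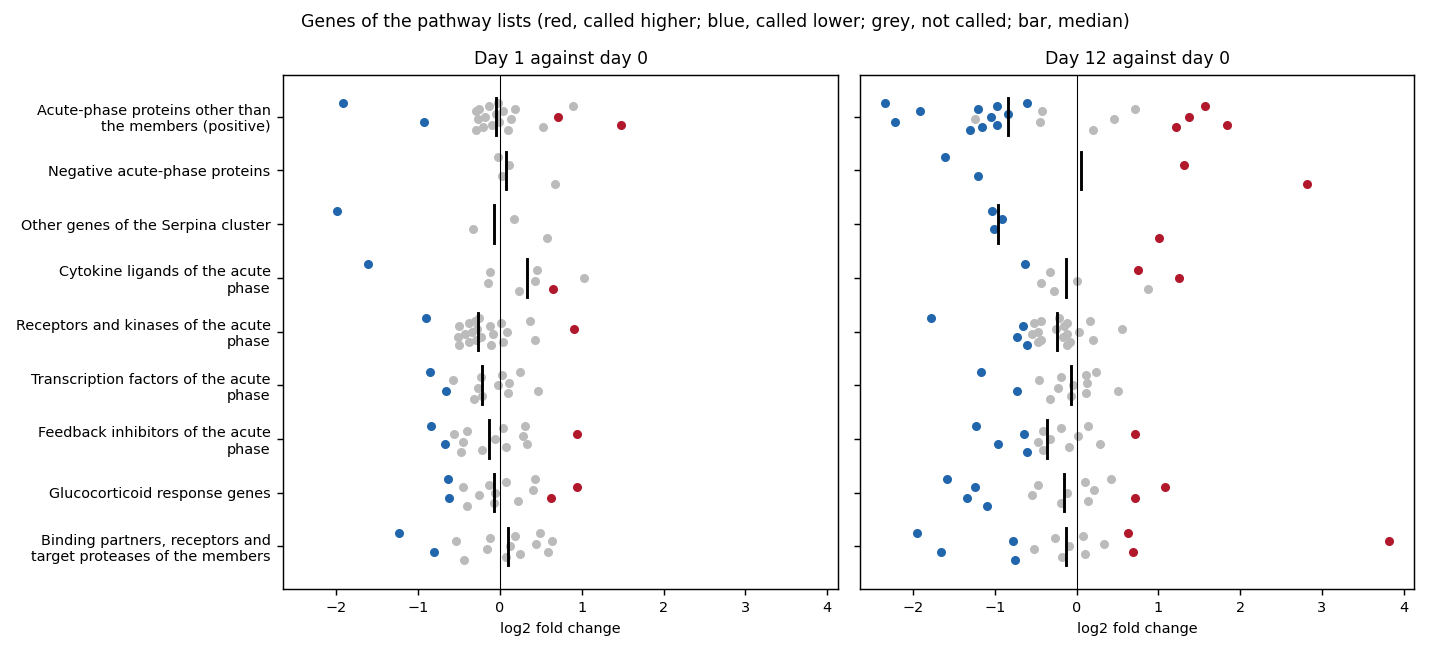
Log2 fold change of every tested gene of the 9 pathway lists on day 1 (left) and day 12 (right) against day 0, with a bar at the median of each list. Red genes were called higher, blue genes lower and grey genes were not called. The other positive acute-phase proteins lie below 0 on day 12 more often than above it (11 of 21 called lower), and the cytokines, receptors and transcription factors are spread on both sides of 0.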

How the data were processed

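Raw read counts per gene symbol of 15 libraries were used as the authors deposited them. By the study's methods and the submitters' processing notes, reads were aligned to mm10 with TopHat2 2.0.13 and Bowtie2 2.2.1 and counted per gene with HTSeq, whose version, strand setting and treatment of reads with several matches are not given in the sources used here. Regularized log2 values of the same libraries and columns with the authors' own fold changes and p-values were not used. Library totals limit the precision: 3 counts were worth 0.0238 to 0.0428 CPM, which covers counting error only. Genes were kept with filterByExpr (minimum count 10), scaled by TMM and fitted over all 3 groups of 5 libraries in edgeR (version 4.0.16, under R 4.3.3) by its quasi-likelihood test, adjusted by Benjamini-Hochberg over all genes. Standard errors are the absolute log2 fold change divided by the square root of F. Calls needed an adjusted p below 0.05 together with more than 1.5-fold change. The script was tested on simulated data with known changes.

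All 10 genes are named. From each list, those called whose mean reached 1 CPM were named, at most 6 by the absolute log2 fold change on day 12, and for each of the 10 genes the 2 most alike genes by Pearson's r of log2 CPM (prior count 2). Other names were added after their values were seen. A few genes that this rule names are not reported here. The 10 genes and the lists were chosen with earlier results of these data known. Same-numbered replicates did not deviate together (correlations of -0.05 to 0.09 in 15 pairs), and no 2 libraries of a group were alike within sampling noise (chi-square over degrees of freedom of at least 5.98 in 30 pairs). Transcripts and coordinates are from GENCODE M21 (GRCm38), promoter windows from RefSeq (GRCm38.p6). Alternatives were DESeq2 1.42.0, other scalings and filters, no fold change limit, Serpina3 rows summed, a replicate block, the series of library numbers in the labels (as a covariate, and the larger of 2 series alone), and leaving out each library.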

Additional observations from a re-analysis of the deposited data

Results flagged for a closer look

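Orm1 stood at 15.8 CPM in day 1 replicate 4, above the next library of its group at 14.3 CPM by more than Dixon's limit for 5 libraries. This was the only 1 of 30 groups of the 10 genes to pass it, where chance passes about 1 in 20, and the log2 fold change of Orm1 on day 1 was 0.12 without that library. In edgeR's test of day 12 against day 1, 7 of the 10 genes and the summed Serpina3 counts were called. Of all genes, 10.6% were called higher and 8.53% lower there. All 10 genes had an adjusted p under 0.05, and Saa3, Ptx3 and Serpina3c missed only the fold change limit. Among those called, the differences in log2 fold change were 0.98 for Serpina3f, 1.01 for Serpina3g and 2.93 for Serpina3h, which were higher on day 12. They were -0.78 for Serpina3n, -0.87 for Lcn2, -1.22 for Hp, -1.27 for Orm1 and -0.73 for the sum, which were lower on day 12.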

How the results depend on the processing

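DESeq2, size factors by the median of ratios, a mean of at least 1 CPM, no filter, the library number series as a covariate and the replicate block changed no call among the 10 genes and none for the summed Serpina3 counts. With the replicate block the summed counts had a log2 fold change of -0.81 on day 12, and the replicate numbers did not pair the libraries: in 5 of 15 same-numbered pairs the library was the best match. With no fold change limit 4, 5 and 5 of the 10 genes were called higher (day 1, day 12, and day 12 against day 1) and 5 lower on day 1, where 35.3%, 39.2% and 34.3% of all genes were called higher and 36.2% lower on day 1, and the summed counts on day 1 (-0.074) were called. With the Serpina3 rows summed, 0 of the remaining genes were called higher in each comparison and 0 lower on day 1, because the genes called there are Serpina3 genes. With libraries scaled by their totals the summed counts between day 1 and day 12 stood at -0.56 and were not called. The number called lower on day 1 was 1 in the larger library number series and 1 to 2 over the fits that each left out a library, through Serpina3g (-0.58 and, without day 0 replicate 2, -0.55). Under scaling by totals, 7 negative values, none of them called, turned positive: Ptx3 (0.13), Irak4 (0.077) and Tnfaip6 (0.019) on day 12, and Fga (0.072), Socs3 (0.018), Tlr4 (0.063) and Tnip1 (0.0072) between day 1 and day 12. The day 1 values of Pdk4 (-0.06) and Trf (-0.03), neither called, ran from -0.12 to 0.0035 and from -0.052 to 0.0013 over the fits that left out a library, with Pdk4 at 0.0006 without day 1 replicate 1. Of all calls on day 12 35.9% were lower under scaling by totals in place of 55.6%, and 27.3% in place of 44.7% against day 1. The cause was not tested. Without a limit on fold change, small shifts pass at these depths, while genes with few reads such as Serpina3h and Saa4 have standard errors of 0.13 to 0.16.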
